A study of Mus musculus with 22 samples.

Results

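The step from morula to blastocyst was followed in mouse embryos depleted of the histone variant H2A.Z. Every library of the series labelled H2A.Z knockdown (KD) at the morula (3 libraries) or blastocyst stage (4 libraries) was taken, 7 of 22 libraries, with every gene that reached 1 FPKM or more in 3 or more of them, 11370 of 55335 genes. The series profiled control and KD embryos of 3 stages (2-cell, morula, blastocyst) by RNA-seq. Zygotes of the B6D2F1 strain received about 10 pL of siRNAs against H2A.Z at 20 µM, and embryos were harvested 78 h (morulae) or 94 h (blastocysts) after hCG. The 8 control libraries of these stages served as a measure of the size of the same step without KD. The labels of these RNA-seq libraries do not state how control zygotes were treated.

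Each library pooled 15 embryos and was prepared from polyadenylated RNA with Smart-seq2, so embryos within a pool cannot be told apart. Whether KD embryos without a cavity at 94 h were left out of the blastocyst pools was not stated. In such bulk libraries, fewer cells of a kind and less RNA per cell cannot be told apart. A gene counted as a differentially expressed gene (DEG) at a limma adjusted p below 0.05 with an absolute log2 fold change above 1. Fold changes are KD blastocyst over KD morula unless stated otherwise and are given ± standard error. They were computed on log2(FPKM + 1), so for genes near or below 1 FPKM they are smaller than the ratio of FPKM. FPKM values are listed in the order of replicates 1, 2 and 6 for KD morulae and 1, 4, 5 and 6 for KD blastocysts. Besides the genes of largest change, members of 26 gene lists are named, and the examples within a list were chosen after their values were seen. Lists and members were chosen with earlier results of these data known. Shares of a list set beside those of all tested genes are therefore descriptions.

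At this step outer cells become trophectoderm, an epithelium that seals its junctions and pumps fluid into the blastocoel, while inner cells form the inner cell mass, the source of epiblast and primitive endoderm. H2A.Z replaces canonical H2A in nucleosomes, many of them at promoters, and is exchanged by the SRCAP and p400 complexes. The trophectoderm program runs through Hippo signalling and the transcription factors TEAD4, CDX2 and GATA3.

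Transcripts of both H2A.Z genes were low in every KD library. *H2afz*, which encodes H2A.Z.1, read 30.3, 25.7 and 29.0 in KD morulae and 64.2, 67.2, 53.2 and 57.6 in KD blastocysts, against 1158 to 1511 in control morulae and 1945 to 2656 in control blastocysts. Its level was higher in all 4 KD blastocysts than in any KD morula (log2 fold change 0.87 ± 0.18, adjusted p = 0.0028) without reaching the fold limit, and the control step was of similar size (0.70 ± 0.19). *H2afv*, which encodes H2A.Z.2, read 12.9, 11 and 9.90 in KD morulae and 19.9, 16.9, 10.6 and 13.9 in KD blastocysts, against 92.5 to 113 and 49.9 to 63.5 in the control stages. KD morulae and KD blastocysts overlapped for *H2afv* (log2 fold change 0.20 ± 0.24, adjusted p = 0.542). None of the 16 genes for H2A.Z and its exchange machinery was a DEG of the KD step (compared with 14.9% of all tested genes). *H2afz* was one with FPKM as deposited (1.07). The median of the 16 genes was 0.05 against −0.03 over all tested genes. *Srcap*, the ATPase that loads H2A.Z, stood at 0.12 ± 0.18, and the chaperone gene *Anp32e*, which removes it, at 0.07 ± 0.22.

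Summed markers followed the stage labels, and RNA of other cells was scarce. The 19 trophectoderm transcription factors summed to 169, 149 and 196 FPKM in KD morulae, where *Klf5* was the most abundant, and to 480, 574, 594 and 538 in KD blastocysts, where *Id2* was. Control blastocysts summed to 880 to 1068. The 34 genes of the 2-cell stage found in the table summed to 1039, 1106 and 918 FPKM in KD morulae. They summed to 207, 259, 209 and 360 in KD blastocysts, with *Obox6* the largest in each library. *Obox6* alone held 786, 823 and 699 FPKM of the KD morula sums and 86.3, 81.0, 95.2 and 101 of the KD blastocyst sums. It made up most of the fall, and of the 21 genes tested 4 were downward DEGs. Of 15 cumulus and granulosa cell genes, 2 were tested (*Hsd17b1* and *Amhr2*) and 5 were at 0 in all 7 libraries (*Has2*, *Ptx3*, *Fshr*, *Ereg* and *Inha*). Their sums stayed between 9.54 and 16.3 FPKM in the 7 KD libraries. Control sums were 10.1 to 13.1 in morulae and 5.53 to 9.20 in blastocysts, where KD blastocysts had 11.8 to 16.3. Of 12 blood and oviduct genes, 3 were tested and 4 were at 0 in all 7 libraries (*Ptprc*, *Hbb-bs*, *Hbb-bt* and *Foxj1*). Their sums were 17.2, 11 and 8.11 in KD morulae and 5.66, 8.41, 6.49 and 4.65 in KD blastocysts. Control sums were lower, at 3.37 to 6.65 in morulae and 1.70 to 4.04 in blastocysts. The most abundant in each KD library was *Hba-a1*. Its near-identical copy *Hba-a2* was the 1 DEG among them (log2 fold change −1.01 ± 0.26, adjusted p = 0.0093), and the reads of these copies cannot be assigned with certainty. *Hba-a2* was no longer a DEG in 4 fits with 1 library left out (−0.92 without KD blastocyst replicate 1, −0.99 without KD blastocyst replicate 5, −0.75 without KD morula replicate 1 and −0.99 without KD morula replicate 2), and *Hba-a1*, at −0.92 ± 0.22, became one in 2 (−1.04 without KD blastocyst replicate 4 and −1.06 without KD morula replicate 6).

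The KD step changed 1695 of 11370 tested genes (14.9%), 960 upward (8.44%) and 735 downward (6.46%). Adjusted p alone was below 0.05 for 4258 genes. The median log2 fold change was −0.03 over all tested genes, 1.35 over the upward DEGs and −1.26 over the downward DEGs. Most upward changes were modest, 617 of the 960 staying below 1.5, while 150 exceeded 2, 28 exceeded 3 and 6 exceeded 4. On the downward side 54 genes passed −2 and 1, *Obox6*, passed −3. Upward DEGs went from a median of 1.93 FPKM in KD morulae to 8.49 in KD blastocysts, and downward DEGs from 15.3 to 5.88, against 5.50 and 6.54 over all tested genes. KD blastocysts and KD morulae did not overlap for 952 of the upward DEGs and 685 of the downward DEGs, compared with 4924 of all tested genes (43.3%), 28.8% with every KD blastocyst higher and 14.5% with every KD blastocyst lower.

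The split between upward and downward DEGs depended on the scale. Upward genes made up 56.6% of the DEGs as scaled here and 72.8% when FPKM were taken as deposited. With deposited FPKM the median of all tested genes moved from −0.03 to 0.13, the medians of 24 gene lists moved by 0.10 to 0.20 in the KD step and by −0.01 to 0.06 in the control step, and lists lost downward DEGs, from 3 to 0 in the Hippo pathway, from 2 to 0 among splicing factors, from 4 to 1 in mitosis, from 3 to 1 among lysosome genes and from 1 to 0 in primitive endoderm, sterol synthesis and DNA replication. Ranked over the 4 KD blastocysts, replicate 5 held the highest value for 4511 of the 11370 tested genes (39.7%), including 358 of the 960 upward DEGs (37.3%) and 216 of the 735 downward DEGs (29.4%). KD morulae correlated with each other at 0.983 to 0.987, KD blastocysts at 0.968 to 0.982, and the stages with each other at 0.922 to 0.949. Read depth cannot be read from FPKM. Genes with at least 1 FPKM numbered 10490, 10363 and 10143 in KD morulae and 10792, 10796, 11495 and 11048 in KD blastocysts. In each of the 7 fits with 1 KD library left out, 722 of the 960 upward DEGs (75.2%) and 505 of the 735 downward DEGs (68.7%) were still DEGs. A gene named in the text that lost or gained the call in such a fit is given with the value it had there.

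**Figure D1:**
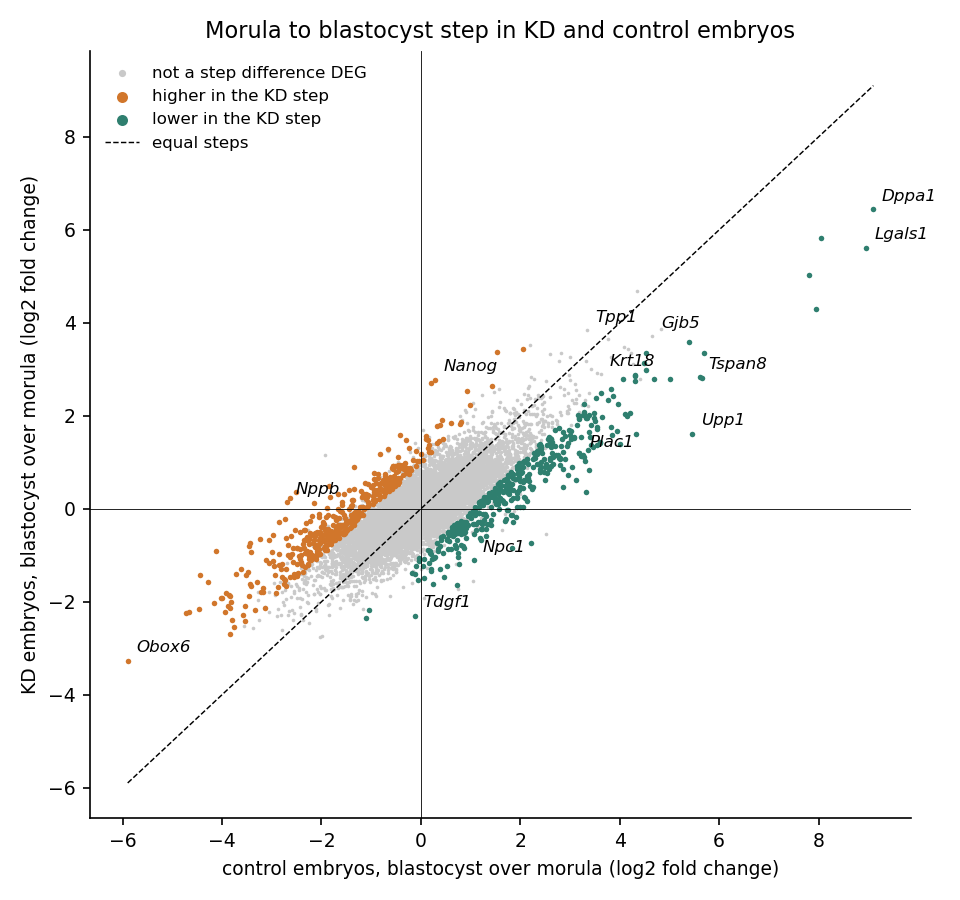
Log2 fold change from morula to blastocyst in KD embryos against the same step in control embryos for 10864 genes tested in both, with step difference DEGs coloured. Over 1402 upward DEGs of the control step the median was 1.52 in control embryos and 1.00 in KD embryos.

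Few genes crossed 1 FPKM in all libraries between the stages, and such a crossing can be small. Below 1 FPKM in all 3 KD morulae and at least 1 in all 4 KD blastocysts were 445 genes, 237 of them DEGs, and the reverse held for 121 genes, 60 of them DEGs, whereas 8638 genes had at least 1 FPKM in all 7 libraries. Long intergenic RNAs gave 41 upward and 30 downward DEGs of 268 tested (26.5%) and antisense transcripts 14 and 15 of 138 (21%). Protein-coding genes gave 808 and 551 DEGs of 8533 (15.9%). Processed pseudogenes gave 41 and 60 of 1542 (6.55%), and their reads may belong to parent genes.

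Genes were ranked among protein-coding DEGs whose KD libraries did not overlap. The largest rise belonged to *Dppa1*, a gene of unknown function named for its expression in early embryos, which read 0.216, 0.0155 and 3.56 in KD morulae and 188, 250.5, 119.9 and 145 in KD blastocysts (log2 fold change 6.44 ± 0.47, adjusted p = 5.1e-06). *Adh1*, an alcohol dehydrogenase of retinol metabolism, went from 0, 0.0538 and 0 to 50.4, 75.9, 75.0 and 47.4 (log2 fold change 5.82 ± 0.21, adjusted p = 2.9e-08). *Lgals1*, which encodes a galactoside-binding lectin, read 0.806, 1.48 and 0.752 and then 47.9, 171, 117 and 136 (log2 fold change 5.62 ± 0.34, adjusted p = 1.1e-06). All KD morulae lay below 4 FPKM and all KD blastocysts above 47 for these 3 genes. The secreted adhesion protein gene *Spp1* rose from 4.46, 1.90 and 2.13 to 145, 105, 187 and 115 (log2 fold change 5.04 ± 0.24, adjusted p = 2.0e-07). *Hist1h2bc*, one of a family of near-identical H2B genes whose reads are uncertain, rose by 4.69 ± 0.20, and the uncharacterized *BC053393* by 4.31 ± 0.21. The remaining genes of the 10 largest protein-coding rises were *Tceal9* (3.88 ± 0.25), the lysosomal peptidase gene *Tpp1* (3.84 ± 0.23), the gap junction gene *Gjb5* (3.71 ± 0.23) and *Prss8* (3.65 ± 0.22), a membrane serine protease that activates epithelial sodium channels. Adjusted p did not exceed 5.1e-06 for any of them.

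By the same ranking the largest fall belonged to *Obox6*, a homeobox gene of the oocyte and early embryo, which read 786, 823 and 699 in KD morulae and 86.3, 81.0, 95.2 and 101 in KD blastocysts (log2 fold change −3.27 ± 0.15, adjusted p = 2.0e-07). The KD blastocysts lay closely together and far below the KD morulae, yet stayed above control blastocysts, at 4.86 to 12.6. *Obox6* has close relatives in the genome, so some of its reads are uncertain. *Aurkc*, the meiotic Aurora kinase, fell from 24.3, 35.3 and 33.4 to 4.64, 3.24, 6.79 and 5.40 (log2 fold change −2.61 ± 0.22, adjusted p = 1.2e-05). *Tdgf1*, the NODAL co-receptor of the epiblast, fell from 51.5, 59.7 and 103 to 13.5, 15.0, 18.5 and 13.8 (log2 fold change −2.30 ± 0.24, adjusted p = 4.0e-05) and read 49.3 to 99.5 in control blastocysts. Also among the 10 largest falls were *Tnfrsf17* (−2.56 ± 0.22), a receptor of B cells, the uncharacterized *C130026I21Rik* (−2.45 ± 0.20), *Cnmd* (−2.41 ± 0.20), *Bex6* (−2.39 ± 0.21), the neuropeptide gene *Npy* (−2.36 ± 0.28) and *Vpreb3* (−2.30 ± 0.17).

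Trophectoderm transcription factors rose in part. Of 12 tested, 6 were upward DEGs (50%, compared with 8.44% of all tested genes) and 1 a downward DEG (8.33%, compared with 6.46%), with a median of 0.78 against −0.03 over all tested genes and 0.39 for the same factors in the control step. The direct test called a higher KD step for 2 of the 12 (compared with 3.85% of all tested genes). *Elf3* (1.45) was among the 2 and missed a limit in 2 fits. It was 1.37 (adjusted p = 0.055) without KD morula replicate 1 and 1.34 (adjusted p = 0.058) without KD morula replicate 2. A lower KD step was called for 1 (compared with 3.57%), *Id2* (−2.21 ± 0.35, adjusted p = 8.9e-04). *Id2*, an inhibitor of differentiation marking outer cells, read 34.9, 26.0 and 52.0 in KD morulae and 279.5, 366, 239 and 311 in KD blastocysts (log2 fold change 2.80 ± 0.25, adjusted p = 1.6e-05), every KD blastocyst being higher, while control blastocysts read 642 to 853. *Klf6* (log2 fold change 2.55 ± 0.26, adjusted p = 3.3e-05), the epithelial ETS factor *Elf3* (log2 fold change 1.78 ± 0.27, adjusted p = 4.0e-04) and the homeobox gene *Msx2* (log2 fold change 1.17 ± 0.20, adjusted p = 8.7e-04) also rose without overlap. *Eomes*, required for trophoblast development, went from 1.12, 1.15 and 1.17 to 3.20, 4.08, 9.79 and 6.60 (log2 fold change 1.45 ± 0.26, adjusted p = 0.0011), with replicate 5 the highest of 4 KD blastocysts that all exceeded the KD morulae. *Gata3* read 10.4, 9.88 and 14.3 and 28.0, 23.6, 40.3 and 23.6 (log2 fold change 1.05 ± 0.21, adjusted p = 0.0023), again without overlap, but was not a DEG in 3 fits with 1 library left out (0.93 without KD blastocyst replicate 5, 0.95 without KD morula replicate 1 and 0.96 without KD morula replicate 2).

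*Cdx2*, the factor that specifies trophectoderm, was at 0.834, 0.843 and 0.745 FPKM in KD morulae and 1.11, 1.16, 3.07 and 2.23 in KD blastocysts. All 4 KD blastocysts were higher, but the change was not a DEG (log2 fold change 0.51 ± 0.21, adjusted p = 0.082). The control step was of similar size (0.44 ± 0.17). At such FPKM the 1 added before the logarithm makes both values smaller than the ratio of FPKM. *Tead4*, which acts upstream of *Cdx2*, was not a DEG in KD embryos (log2 fold change −0.49 ± 0.23, adjusted p = 0.11), with overlapping groups, nor was *Klf5* (log2 fold change −0.31 ± 0.19, adjusted p = 0.208). *Hand1*, a factor of later trophoblast, fell from 10.4, 7.33 and 4.46 to 1.57, 1.21, 3.06 and 1.41 (log2 fold change −1.71 ± 0.26, adjusted p = 4.0e-04), all KD blastocysts being lower. Control blastocysts read 0.0530 to 0.0674 for *Hand1*, and its step difference was not a DEG (0.30 ± 0.35).

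Structural genes of the trophectoderm epithelium rose in part. Of 8 tested keratin and desmosome genes, 5 were upward DEGs (62.5%, compared with 8.44% of all tested genes) and none fell. Over the 7 tested in both steps the median was 1.51 in the KD step and 2.62 in the control step, and the median step difference over all 8 was −0.51. *Krt8* read 24.7, 20.8 and 33.4 in KD morulae and 169.8, 241, 313 and 231 in KD blastocysts (log2 fold change 2.93 ± 0.21, adjusted p = 4.6e-06). Its filament partner *Krt18* read 44.5, 36.9 and 54.2 and 369, 461, 399 and 329 (log2 fold change 2.89 ± 0.19, adjusted p = 2.7e-06). KD blastocysts exceeded KD morulae more than 5-fold in every pair of libraries for both keratins. The desmosome genes *Dsp* (1.64 ± 0.20), *Dsc2* (1.51 ± 0.22) and *Dsg2* (1.42 ± 0.22) rose too, all KD blastocysts being higher. *Dsg2* reached 1.71, 2.93, 3.55 and 3.48 FPKM in KD blastocysts from 0.229, 0.156 and 0.683 in KD morulae, where control blastocysts were at 9.28 to 10.1, and its step difference was a DEG (−1.55 ± 0.26, adjusted p = 0.0011).

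Among 24 tested genes of epithelial junctions and polarity, 6 were upward DEGs (25%, compared with 8.44% of all tested genes) and none fell, with a median of 0.37 (control step 0.52), which became 0.56 in both steps with FPKM as deposited. *Gjb5*, a connexin, read 1.21, 0.258 and 0.668 and 20.3, 27.3, 21.3 and 22.9 (log2 fold change 3.71 ± 0.23, adjusted p = 1.1e-06), and the adhesion gene *Epcam* read 81.7, 63.6 and 95.0 and 414, 426, 586 and 453 (log2 fold change 2.34 ± 0.18, adjusted p = 5.9e-06). KD blastocysts were above KD morulae in all libraries for both. The tight junction genes *Cldn3* (log2 fold change 1.48 ± 0.18, adjusted p = 1.0e-04) and *Cldn4* (log2 fold change 1.25 ± 0.31, adjusted p = 0.0085) and the microvillus linker *Ezr* (log2 fold change 1.45 ± 0.18, adjusted p = 1.2e-04) rose likewise. *Cldn7* rose by 1.12 ± 0.23 and was not a DEG in 2 fits (0.93 without KD blastocyst replicate 5 and 0.92 without KD morula replicate 1). The cadherin gene *Cdh1* (0.38 ± 0.21), the tight junction genes *Tjp1* (−0.16 ± 0.20) and *Ocln* (0.18 ± 0.21) and the polarity gene *Pard6b* (−0.12 ± 0.21) were not DEGs.

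Of 8 tested genes for blastocoel fluid transport, 1 was a DEG (12.5%, compared with 14.9% of all tested genes), and 3 rose with FPKM as deposited. *Slc9a3r1*, the scaffold of apical sodium-proton exchangers, read 0.982, 0.924 and 1.32 in KD morulae and 4.76, 6.98, 12.9 and 9.96 in KD blastocysts (log2 fold change 2.00 ± 0.25, adjusted p = 1.3e-04), every KD blastocyst being higher. *Atp1b1*, the sodium pump subunit, read 10.8, 11.8 and 9.38 and 17.4, 19.4, 27.3 and 28.5, above in all 4 KD blastocysts but short of the fold limit (log2 fold change 0.84 ± 0.19, adjusted p = 0.0045). The control step of *Atp1b1* was 1.98 ± 0.17 and the step difference was a DEG (−1.14 ± 0.25, adjusted p = 0.0072). *Fxyd4*, a regulator of the pump, had overlapping groups in KD embryos (−0.04 ± 0.22) and rose in control embryos (1.73 ± 0.24), with a step difference of −1.77 ± 0.34 (adjusted p = 0.0032). The aquaporin genes *Aqp3* (0.89 ± 0.24) and *Aqp9* (−0.92 ± 0.26) missed the fold limit, and passed it when 1 library was left out, *Aqp3* at 1.06 without KD blastocyst replicate 4 and *Aqp9* at −1.16 without KD blastocyst replicate 5.

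Late effectors of trophectoderm and trophoblast had a smaller median in the KD step than in the control step. Of 18 tested, 8 rose (44.4%, compared with 8.44% of all tested genes) and 1 fell (5.56%, compared with 6.46%). The median was 0.81 in the KD step and 1.79 in the control step. In the control step 13 rose (72.2%, compared with 12.9% of genes tested in both steps). *Tspan8*, a tetraspanin, read 6.05, 3.52 and 7.35 in KD morulae and 62.6, 61.9, 51.0 and 33.8 in KD blastocysts (log2 fold change 2.83 ± 0.28, adjusted p = 2.7e-05), while control blastocysts read 335 to 714. *Plac1*, needed for placental growth, was at 4.9e-05, 0.284 and 0.0101 FPKM in KD morulae and 1.60, 1.52, 2.07 and 1.000 in KD blastocysts (log2 fold change 1.14 ± 0.19, adjusted p = 6.9e-04), and at 11.1 to 30.5 in control blastocysts. Both were higher in every KD blastocyst than in every KD morula. The prostaglandin genes *Ptgr1* (2.14 ± 0.19) and *Ptges* (1.63 ± 0.19) and the annexin gene *Anxa2* (2.06 ± 0.22) rose without overlap. *Wnt7b* rose by 1.06 ± 0.27, which was 0.78 without KD blastocyst replicate 5 and then no DEG, and the 1 falling gene, *Ctsh* (−1.18 ± 0.33), whose groups overlapped, was not a DEG in 3 fits (−0.90 without KD blastocyst replicate 5, −1.05 (adjusted p = 0.066) without KD morula replicate 2 and −1.09 (adjusted p = 0.056) without KD morula replicate 6).

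Of these 18 late effectors, the direct test called a lower KD step for 8 (compared with 3.57% of all tested genes) and a higher one for none. As the list was chosen with earlier results of these data known, this count is a description. The 8 included *Lgals1* (−3.33 ± 0.52), *Tspan8* (−2.78 ± 0.40), *Spp1* (−2.77 ± 0.38), *S100a10* (−2.23 ± 0.28), *Plac1* (−2.08 ± 0.38), *Gm2a* (−1.35 ± 0.22) and *Lgals3* (−1.18 ± 0.26), at adjusted p from 1.4e-04 to 0.0074. *S100a10*, a partner of annexin 2, read 82.1, 87.3 and 94.9 and 149, 218, 158 and 156 in the KD stages, against 35.2 to 47.4 and 272 to 433 in the control stages. Its KD libraries were thus higher than control at the morula stage and lower at the blastocyst stage, without overlap at either. The member left over, *S100a11*, stood at −1.09 ± 0.25 and was not a DEG in 2 fits (−0.99 without KD morula replicate 6 and −0.97 without control blastocyst replicate 1).

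Hippo pathway genes had medians below 0 in both steps. Of 16 tested, 3 fell (18.8%, compared with 6.46% of all tested genes) and none rose, with a median of −0.52 (control step −0.71). With FPKM as deposited none fell, 1 rose and the median was −0.35, and with a pseudocount of 0.1 in place of 1, 2 rose. The kinase gene *Stk4* (log2 fold change −1.18 ± 0.19, adjusted p = 6.7e-04) and the kinase adaptor *Mob1b* (log2 fold change −1.15 ± 0.17, adjusted p = 4.3e-04) fell in all KD blastocysts relative to all KD morulae. *Amotl2* fell by −1.01 ± 0.20 and was not a DEG in 2 fits (−0.95 without KD blastocyst replicate 4 and −0.84 without KD morula replicate 2). *Tead2*, not a DEG at 0.95 ± 0.23, became an upward DEG in 2 fits (1.12 without KD blastocyst replicate 4 and 1.00 without KD morula replicate 2). *Yap1* (−0.56 ± 0.37) and *Wwtr1* (−0.04 ± 0.20), the coactivators held in check by the pathway, were not DEGs, and for *Yap1* the 4 KD blastocysts spread over 1.13, 1.03, 7.60 and 3.03 against 3.60, 3.44 and 3.78 in KD morulae. Their target *Ccn1*, a secreted matrix protein, was higher in all 4 KD blastocysts (log2 fold change 0.64 ± 0.22, adjusted p = 0.038), short of the fold limit, and went the other way in the control step (−0.95 ± 0.18). The step difference of *Ccn1* was a DEG (1.59 ± 0.28, adjusted p = 0.0018).

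**Figure D2:**
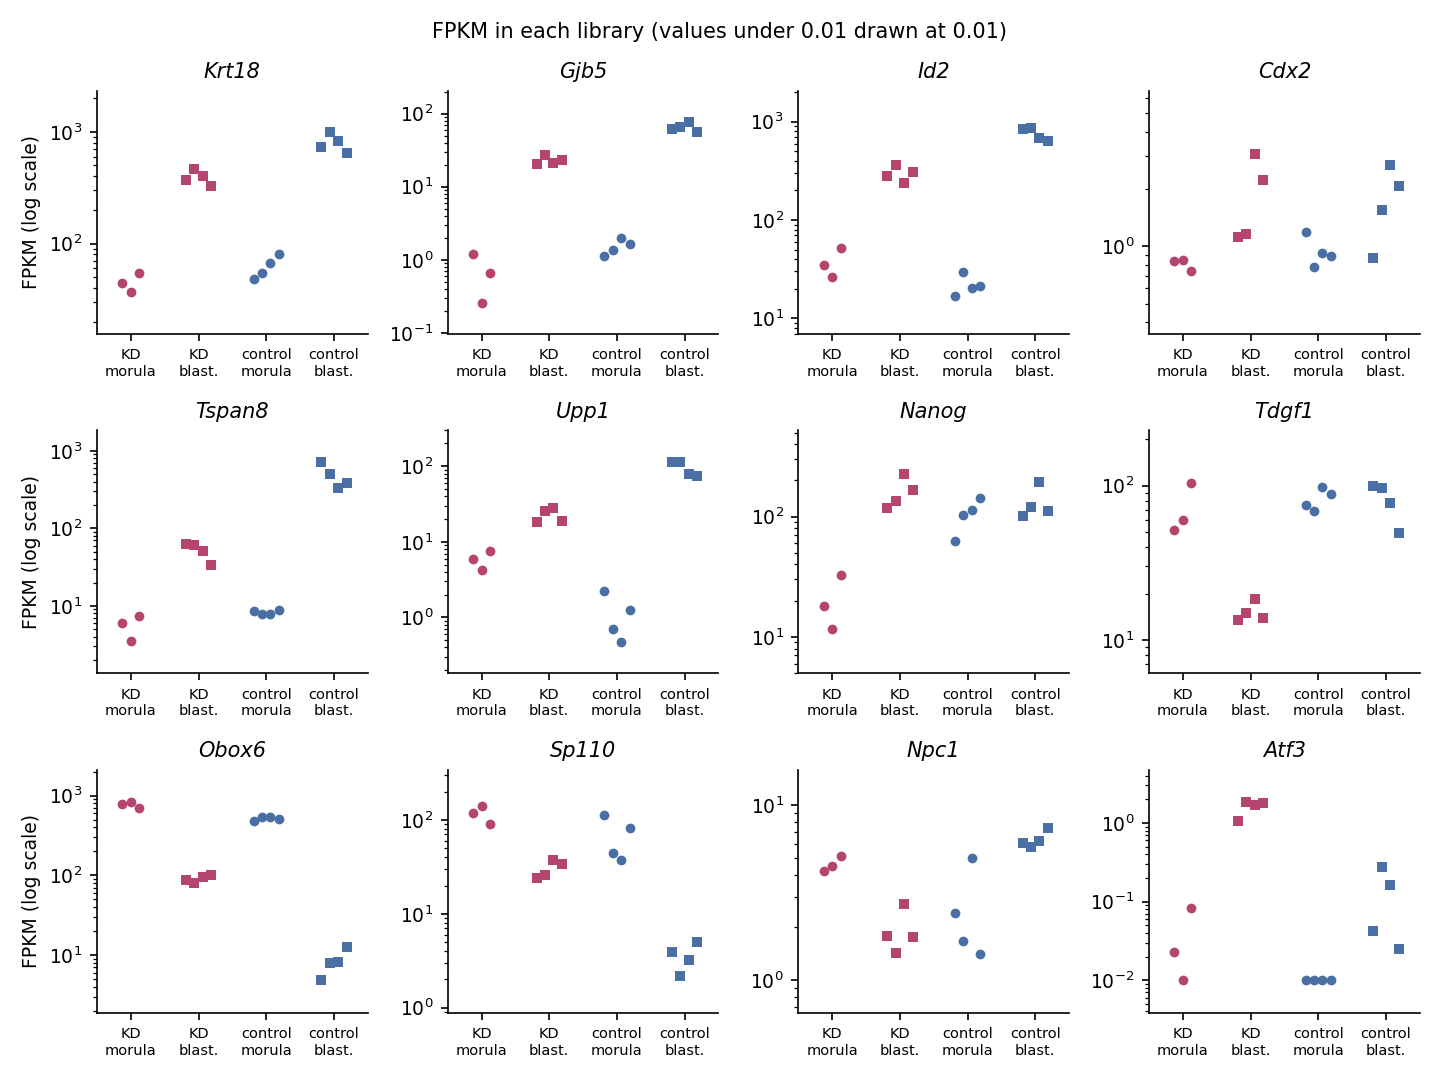
FPKM of 12 genes in each of the 15 morula and blastocyst libraries, on a log scale. *Krt18* read 36.9 to 54.2 in KD morulae and 329 to 461 in KD blastocysts, and *Nanog* 11.6 to 32.5 and 118 to 226.

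Genes of pluripotency and epiblast fell more often than they rose. Of 17 tested, 2 rose (11.8%, compared with 8.44% of all tested genes) and 6 fell (35.3%, compared with 6.46%), with a median of −0.38 (control step −0.52). *Nanog*, the epiblast homeobox factor, read 17.9, 11.6 and 32.5 in KD morulae and 118, 134, 226 and 166 in KD blastocysts (log2 fold change 2.78 ± 0.30, adjusted p = 4.8e-05), with every KD blastocyst more than 3-fold above every KD morula. Control libraries read 62.9 to 143 in morulae and 100.5 to 195 in blastocysts, a step of 0.29 ± 0.28 that was not a DEG. KD morulae were thus lower than all control morulae, whereas KD blastocysts overlapped control blastocysts. *Sox2* rose by 1.05 ± 0.17 and was not a DEG in 2 fits (0.998 without KD blastocyst replicate 5 and 0.98 without KD morula replicate 1). *Pou5f1* was not a DEG (log2 fold change 0.08 ± 0.28, adjusted p = 0.849), its KD blastocysts at 15.1, 15.5, 45.8 and 26.3 around the KD morulae at 21.3, 19.8 and 16.3.

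Downward in the same list went *Tdgf1* (step difference −2.18 ± 0.37, adjusted p = 0.0013), the nuclear receptor gene *Nr5a2* (log2 fold change −1.55 ± 0.27, adjusted p = 9.2e-04), *Klf2* (log2 fold change −1.53 ± 0.17, adjusted p = 7.1e-05), the ETS factor *Spic* (log2 fold change −1.53 ± 0.17, adjusted p = 5.8e-05) and the zinc finger gene *Sall4* (log2 fold change −1.18 ± 0.17, adjusted p = 3.4e-04), each lower in all KD blastocysts. *Utf1* fell by −1.01 ± 0.20 and was not a DEG in 2 fits (−0.85 without KD blastocyst replicate 4 and −0.98 without KD morula replicate 2). *Spic* read 689, 763 and 753 in KD morulae and 273, 300.5, 267 and 330.3 in KD blastocysts, against 215 to 422 and 174 to 204 in the control stages, the KD morulae lying above all control morulae. Its step difference was not a DEG (−0.72 ± 0.30). Primitive endoderm was represented by 7 tested genes of 26, with 1 rise and 1 fall (14.3% each, compared with 8.44% and 6.46% of all tested genes). The matrix gene *Sparc* read 0.230, 0.140 and 0.0700 and 1.79, 3.77, 6.32 and 1.90 (log2 fold change 1.75 ± 0.28, adjusted p = 5.6e-04), every KD blastocyst being higher, but stayed below control blastocysts at 12.2 to 20.4 (step difference −2.06 ± 0.34, adjusted p = 0.001). *Nid1* fell (log2 fold change −1.15 ± 0.20, adjusted p = 0.0011) without overlap, and *Gata6* was not a DEG (log2 fold change 0.56 ± 0.31, adjusted p = 0.177). The regulators of later tissues *Foxa2*, *T*, *Neurog1*, *Pax6* and *Hoxb13* were below the filter. *Foxa2* and *T* read 0 in all 7 KD libraries, and *Neurog1* in all but KD morula replicate 1. FPKM carry no read counts, so a value of 0 does not show that a gene was silent.

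In FGF and LIF signalling 2 of 10 tested genes rose (20%, compared with 8.44% of all tested genes) and 1 fell (10%, compared with 6.46%), with a median of 0.22 over the 9 tested in both steps (control step 0.36). *Stat3*, the effector of LIF, rose by 1.38 ± 0.23 and the ERK phosphatase gene *Dusp4* by 1.38 ± 0.27, both with all KD blastocysts higher. *Socs3*, a feedback inhibitor of STAT3, fell by −1.56 ± 0.21 with all KD blastocysts lower. *Dusp6*, a phosphatase induced by FGF, was not a DEG in KD embryos (0.22 ± 0.20) and rose in control embryos (1.59 ± 0.19), with a step difference DEG (−1.37 ± 0.27, adjusted p = 0.0038).

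Genes of the 2-cell stage had a median that fell less in the KD step than in the control step. Of 21 tested, 4 fell (19.0%, compared with 6.46% of all tested genes) and none rose. Among the 17 tested in both steps, 4 fell in the KD step and 12 in the control step, with medians of −0.46 and −1.29. The 12 were 70.6% of the 17, compared with 12.8% of all genes tested in both steps. Besides *Obox6*, the falling genes were *Sp110* (log2 fold change −2.10 ± 0.19, adjusted p = 1.6e-05), *Tdpoz2* (log2 fold change −1.80 ± 0.26, adjusted p = 3.1e-04) and *Zscan5b* (log2 fold change −1.66 ± 0.21, adjusted p = 1.5e-04), each lower in all KD blastocysts. *Tdpoz* and *Usp17* genes are families of near-identical copies with uncertain reads. *Sp110* read 118, 140.1 and 91.5 in KD morulae and 24.3, 25.7, 37.7 and 34.1 in KD blastocysts, against 2.17 to 5.03 in control blastocysts. The direct test called a higher KD step for 4 of the 21 (compared with 3.85% of all tested genes) and a lower one for none. The 4 included *Obox6* (2.63 ± 0.26, adjusted p = 2.8e-05) and *Sp110* (1.77 ± 0.40, adjusted p = 0.0092). *Gm2016*, not a DEG at 0.89 ± 0.36, became an upward DEG in 1 fit (1.26 without KD blastocyst replicate 5) and with FPKM as deposited (1.08), and 2 genes of the list rose with a replicate block.

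Most tested oocyte and maternal genes fell. Of 13 tested, 8 fell (61.5%, compared with 6.46% of all tested genes) and 2 rose (15.4%, compared with 8.44%), and over the 12 tested in both steps the median was −1.14 (control step −1.01). *Oog3* (log2 fold change −1.97 ± 0.19, adjusted p = 2.7e-05), the nucleoplasmin gene *Npm2* (log2 fold change −1.47 ± 0.18, adjusted p = 1.1e-04), the deadenylase adaptor *Btg4* (log2 fold change −1.32 ± 0.19, adjusted p = 2.8e-04), *Padi6* (log2 fold change −1.17 ± 0.18, adjusted p = 4.7e-04) of the subcortical complex and the zona gene *Zp3* (log2 fold change −1.38 ± 0.36, adjusted p = 0.01) fell in all KD blastocysts. The near-identical copies *Omt2a* (−2.13 ± 0.18) and *Omt2b* (−2.15 ± 0.20) fell as well, with uncertain reads. *Oog1* fell by −1.10 ± 0.25 and was not a DEG in 1 fit (−0.93 without KD blastocyst replicate 4). *Nlrp4f* went the other way, from 0.200, 0.389 and 0.468 to 2.26, 2.43, 4.13 and 5.36 (log2 fold change 1.59 ± 0.23, adjusted p = 3.2e-04), with all KD blastocysts higher. *Ooep* rose by 1.03 ± 0.25, was not a DEG in 4 fits (0.92 without KD blastocyst replicate 1, 0.88 without KD blastocyst replicate 4, 0.94 without KD morula replicate 1 and 0.95 without KD morula replicate 2), and read 32.1 to 44.0 in control blastocysts against 2.82, 3.23, 1.79 and 1.34 in KD blastocysts.

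Of 25 tested p53 targets and genes of arrest and apoptosis, 2 rose (8%, compared with 8.44% of all tested genes) and none fell. Over the 23 tested in both steps the median was 0.31 (control step −0.21). By the direct test 3 of the 25 had a higher KD step (compared with 3.85% of all tested genes) and none a lower one. *Btg2*, an antiproliferative gene, read 7.46, 8.10 and 6.47 and 29.2, 23.5, 15.4 and 19.1 (log2 fold change 1.24 ± 0.24, adjusted p = 0.0022), and *Ccng1* rose by 1.01 ± 0.18 but was not a DEG in 3 fits (0.87 without KD blastocyst replicate 1, 0.97 without KD morula replicate 1 and 0.98 without KD morula replicate 6). *Cdkn1a*, which encodes the cell cycle inhibitor p21, was level at 128, 149.8 and 94.0 in KD morulae and 161, 133, 146 and 123 in KD blastocysts (log2 fold change 0.01 ± 0.19, adjusted p = 0.985). Control libraries were lower, at 32.4 to 52.6 and 18.4 to 55.7. *Mdm2*, the p53 ligase, stood at 0.48 ± 0.17 in the KD step. Of 16 tested genes of the integrated stress response, 2 rose and 1 fell (18.8% DEGs, compared with 14.9% of all tested genes). Their median was −0.22 over the 13 tested in both steps (control step −0.74). A higher KD step was called for 4 of the 16 (compared with 3.85% of all tested genes) and a lower one for none. *Atf3* went from 0.0230, 0 and 0.0829 to 1.05, 1.84, 1.71 and 1.78 (log2 fold change 1.25 ± 0.17, adjusted p = 2.2e-04) and stayed at 0.0252 to 0.272 in control blastocysts, so that its step difference was a DEG (1.10 ± 0.17, adjusted p = 8.2e-04). *Ddit3*, listed under 2 overlapping identifiers and counted once, rose by 1.72 ± 0.22 with all KD blastocysts higher. *Nupr1* fell by −1.37 ± 0.32 with overlapping groups.

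Glycolysis was the list with the largest share of upward DEGs among those with at least 10 tested genes, 9 of 16 rising (56.2%, compared with 8.44% of all tested genes) and 1 falling (6.25%, compared with 6.46%), with a median of 1.23 (control step 1.09). *Gapdh* read 15.3, 17.7 and 21.9 and 63.1, 129.7, 171 and 141 (log2 fold change 2.45 ± 0.27, adjusted p = 6.1e-05), *Eno1* 5.43, 5.80 and 11.3 and 43.8, 49.0, 48.1 and 38.2 (log2 fold change 2.30 ± 0.25, adjusted p = 4.9e-05), and *Pkm* 6.07, 5.31 and 9.37 and 27.7, 27.7, 52.4 and 44.0 (log2 fold change 2.09 ± 0.24, adjusted p = 8.3e-05). All KD blastocysts exceeded all KD morulae for these 3 enzymes. *Aldoa* (1.22 ± 0.15), *Tpi1* (1.72 ± 0.30), *Gpi1* (1.72 ± 0.36), *G6pdx* (1.25 ± 0.25) and the glucose transporter gene *Slc2a1* (1.24 ± 0.26) rose as well. *Slc2a3* rose by 1.66 ± 0.45, which became 1.17 (adjusted p = 0.063) without KD morula replicate 1. The lactate dehydrogenase subunit *Ldhb* fell by −1.55 ± 0.22. *Hk2*, hexokinase, was not a DEG in KD embryos (−0.13 ± 0.20) and rose in control embryos (1.08 ± 0.18), with a step difference of −1.22 ± 0.26 (adjusted p = 0.0058), and that of *Tpi1* was −1.82 ± 0.39 (adjusted p = 0.0063).

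Of 29 tested genes of sterol and fatty acid synthesis 9 rose (31.0%, compared with 8.44% of all tested genes) and 1 fell (3.45%, compared with 6.46%), with a median of 0.63 (control step 0.96). *Mvk* (log2 fold change 2.07 ± 0.26, adjusted p = 1.4e-04), *Nsdhl* (log2 fold change 1.87 ± 0.26, adjusted p = 2.6e-04), *Cyp51* (log2 fold change 1.74 ± 0.21, adjusted p = 1.2e-04), *Scd2* (log2 fold change 1.30 ± 0.25, adjusted p = 0.0018) and *Scd1* (log2 fold change 1.29 ± 0.24, adjusted p = 0.0016) rose with all KD blastocysts higher. *Insig1* and *Mvd* were DEGs at 1.17 and 1.02 but not when 1 library was left out. *Insig1* was 0.99 without KD morula replicate 2, and *Mvd* 0.81 without KD blastocyst replicate 5 and 0.85 without KD morula replicate 6. The sterol carrier *Stard4* fell by −1.10 ± 0.17, without overlap.

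Of 34 tested lysosome genes 9 rose (26.5%, compared with 8.44% of all tested genes) and 3 fell (8.82%, compared with 6.46%), with a median of 0.29 over the 33 tested in both steps (control step 0.24). *Tpp1* read 0.0482, 0 and 0.675 in KD morulae and 13.7, 17.6, 23.8 and 17.4 in KD blastocysts (log2 fold change 3.84 ± 0.23, adjusted p = 1.1e-06), close to control blastocysts at 11.9 to 31.8. The glycosidase genes *Hexa* (log2 fold change 1.99 ± 0.28, adjusted p = 2.7e-04) and *Neu1* (log2 fold change 1.98 ± 0.19, adjusted p = 2.6e-05), the autophagy receptor *Sqstm1* (log2 fold change 1.91 ± 0.25, adjusted p = 1.7e-04), *Laptm4b* (log2 fold change 1.78 ± 0.21, adjusted p = 9.2e-05) and the calcium channel *Mcoln1* (log2 fold change 1.50 ± 0.22, adjusted p = 3.4e-04) rose with all KD blastocysts higher. *Ctsd* rose by 1.13 ± 0.28 and was not a DEG in 2 fits (0.88 without KD blastocyst replicate 5 and 0.99 without KD morula replicate 2). The count of 3 became 1 with FPKM as deposited, the range of replicate numbers or a replicate block. The cathepsin gene *Ctsz* fell by −1.08 ± 0.18 (−0.99 without KD blastocyst replicate 5), less than in control embryos (step difference 1.18 ± 0.25, adjusted p = 0.0061), and *Gaa* also had an upward step difference (1.72 ± 0.39, adjusted p = 0.0088).

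*Npc1*, the lysosomal cholesterol exporter, was the 1 gene with opposite DEG calls in the 2 steps. It read 4.19, 4.48 and 5.09 in KD morulae and 1.78, 1.43, 2.71 and 1.77 in KD blastocysts, lower in all 4 (log2 fold change −1.10 ± 0.19, adjusted p = 9.0e-04). In control embryos it rose from 1.41 to 4.99 to 5.74 to 7.35 (1.07 ± 0.25), and the step difference was −2.17 ± 0.33 (adjusted p = 5.7e-04).

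Of 10 tested genes of DNA methylation and its readers 3 rose (30%, compared with 8.44% of all tested genes), with a median of 0.13 (control step 0.46). The glycosylase gene *Tdg* read 0.111, 0.164 and 0.267 and 3.83, 7.68, 14.1 and 9.87 (log2 fold change 2.84 ± 0.29, adjusted p = 3.2e-05), more than 10-fold higher in every KD blastocyst than in every KD morula. *Uhrf1*, which recruits DNMT1, rose by 1.32 ± 0.22 with all KD blastocysts higher. *Mbd1* rose by 1.06 ± 0.23 and was not a DEG in 1 fit (0.90 without KD blastocyst replicate 6). *Dnmt1* (0.07 ± 0.17), *Dnmt3b* (−0.24 ± 0.21) and *Tet1* (−0.06 ± 0.22) were not DEGs.

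Of 35 tested mitosis genes 4 fell (11.4%, compared with 6.46% of all tested genes) and none rose, with a median of −0.26 (control step −0.15). With FPKM as deposited 1 fell and the medians were −0.07 and −0.11, and with a replicate block 2 fell. *Ube2c* (log2 fold change −1.19 ± 0.19, adjusted p = 5.4e-04), *Cdk1* (log2 fold change −1.19 ± 0.20, adjusted p = 7.6e-04) and the kinetochore motor gene *Cenpe* (log2 fold change −1.27 ± 0.18, adjusted p = 2.7e-04) fell in all KD blastocysts, and *Ccnb1* fell by −1.17 ± 0.20 but missed the fold limit in 1 fit (−0.999 without KD blastocyst replicate 5). Of 37 tested genes of DNA replication, *Pole*, the leading strand polymerase, was the 1 DEG (2.7%, compared with 14.9% of all tested genes), and was not one with FPKM as deposited (−0.99). It read 8.91, 9.50 and 9.06 and 4.59, 3.24, 4.58 and 4.19 (log2 fold change −1.16 ± 0.18, adjusted p = 5.0e-04), was not a DEG in control embryos (0.17 ± 0.21), and had a step difference of −1.33 ± 0.27 (adjusted p = 0.0054). *Tyms* (−0.89 ± 0.21) and *Pola1* (−0.89 ± 0.19) each joined *Pole* in 1 fit, *Tyms* at −1.02 without KD blastocyst replicate 6 and *Pola1* at −1.03 without KD morula replicate 6. Among 61 splicing factors 2 fell (3.28%, compared with 6.46% of all tested genes), with a median of −0.24 (−0.05 with FPKM as deposited, control step −0.26), *Srsf9* by −1.05 ± 0.20 and *Sf3b4* by −1.02 ± 0.34, and none fell with FPKM as deposited or after quantile normalization. *Srsf9* was not a DEG in 2 fits (−0.93 without KD blastocyst replicate 4 and −0.90 without KD morula replicate 2) and *Sf3b4* not in 3 (−0.68 (adjusted p = 0.057) without KD blastocyst replicate 4, −0.83 (adjusted p = 0.133) without KD morula replicate 1 and −0.96 (adjusted p = 0.103) without KD morula replicate 2).

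Nuclear genes of the respiratory chain had a smaller median in the KD step. Of 78 tested, 8 rose in the KD step (10.3%, compared with 8.44% of all tested genes) and 44 in the control step (56.4%, compared with 12.9% of genes tested in both steps), with medians of 0.48 and 1.05. The direct test called a lower KD step for 3 of the 78 (3.85%, compared with 3.57% of all tested genes) and a higher one for none. *Cox7b* read 16.2, 13.9 and 10.6 and 62.4, 98.0, 78.6 and 73.9 (log2 fold change 2.25 ± 0.20, adjusted p = 1.6e-05), and *Ndufa5* (log2 fold change 1.43 ± 0.25, adjusted p = 0.0011) and *Sdhc* (log2 fold change 1.20 ± 0.18, adjusted p = 4.2e-04) rose with all KD blastocysts higher. The count of 8 fell to 4 without KD blastocyst replicate 4, when *Ndufb9* (0.92 without KD blastocyst replicate 4 and 0.99 without KD morula replicate 2), *Cox5b* (0.96 without KD blastocyst replicate 4) and *Sdhd* (0.98 without KD blastocyst replicate 4) missed the limits, and rose to 13 without KD blastocyst replicate 5. With FPKM as deposited 18 rose, and 13 after quantile normalization. *Ndufs4* rose by 1.19 ± 0.36 and was not a DEG in 2 fits (1.10 (adjusted p = 0.057) without KD blastocyst replicate 4 and 0.63 (adjusted p = 0.075) without KD morula replicate 2). None of the 13 transcripts of the mitochondrial genome was a DEG (compared with 14.9% of all tested genes). *mt-Nd3*, at −0.93 ± 0.22, became one in 2 fits (−1.07 without KD blastocyst replicate 4 and −1.09 without KD morula replicate 6). The median of the 13 transcripts was −0.33 in the KD step, with all 13 below 0, and 0.34 in the control step. The medians were −0.13 and 0.39 with FPKM as deposited, with 10 of the 13 below 0 in the KD step, and −0.06 and 0.12 after quantile normalization, with 9 below 0. By the direct test 4 of the 13 had a lower KD step (compared with 3.57% of all tested genes) and none a higher one. Among the 4, *mt-Co1* read 6091, 6196 and 4055 in KD morulae and 4059, 5222, 5002 and 6253 in KD blastocysts. Control embryos read 2143 to 4106 and 9831 to 13345 (step difference −2.13 ± 0.30, adjusted p = 3.3e-04). Among 84 tested ribosomal protein genes none was a DEG (compared with 14.9% of all tested genes). *Rpl35a* became one in 1 fit (1.22 without KD morula replicate 2), with FPKM as deposited (1.05), after quantile normalization (1.06) and with a replicate block (1.26). Their median of −0.08 turned to 0.12 with FPKM as deposited and 0.13 after quantile normalization.

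**Figure D3:**
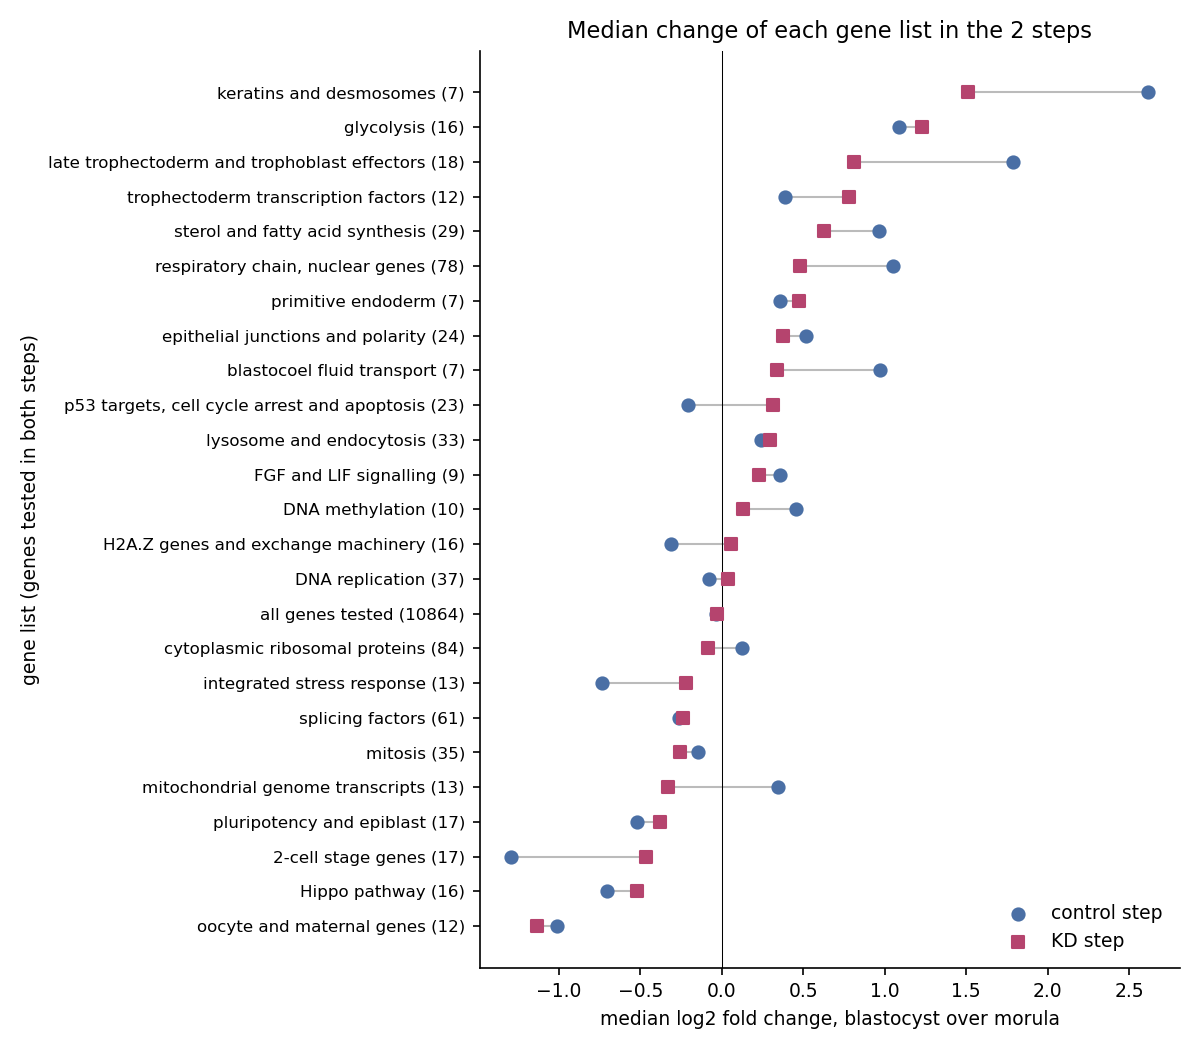
Median log2 fold change of each gene list in the KD step and in the control step, over the genes tested in both, whose number is given. Late trophectoderm effectors stood at 0.81 and 1.79, and 2-cell stage genes at −0.46 and −1.29, while the ribosomal median of −0.08 changed sign with the scale.

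The control step gave 3065 DEGs of 11849 tested genes (25.9%), 1643 upward (13.9%) and 1422 downward (12%). Of the genes tested in the KD step, 10864 (95.5%) were tested in both, and the steps share no library. There, 698 of 934 upward DEGs of the KD step (74.7%) were upward DEGs of the control step, which is 49.8% of its 1402. Downward, 517 of 718 (72.0%) were shared, 37.3% of the 1387 in the control step. Sizes differed more than directions. Over the upward DEGs of the control step the median was 1.52 in control and 1.00 in KD embryos, and over its downward DEGs −1.41 and −0.81, against −0.03 in both steps over all genes tested in both. The KD step was the smaller for 87.9% of these upward and 90.2% of these downward DEGs, compared with 62.7% of all genes. Genes picked as DEGs of the control step are expected to have larger values there. By the reverse choice, the upward DEGs of the KD step had medians of 1.36 in KD and 1.55 in control embryos, and its downward DEGs −1.27 and −1.37.

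A step difference was tested directly for each of 12727 genes, of which 972 were DEGs (7.64%), 448 higher in the KD step (3.52%) and 524 lower (4.12%). Among genes tested in the KD step, 844 were step difference DEGs (7.42%), 438 higher (3.85%) and 406 lower (3.57%). Without a filter on low FPKM 472 of them were (234 higher and 238 lower). Of the upward DEGs of the control step 311 (22.2%) had a lower KD step, and of its downward DEGs 297 (21.4%) a higher one. Among the 698 shared upward DEGs 121 (17.3%) had a lower KD step and 3 a higher one. Among the 517 shared downward DEGs 75 (14.5%) had a higher KD step and 2 a lower one. DEGs of the KD step alone numbered 236 upward, 32 of them (13.6%) with a higher KD step, and 200 downward, 23 of them (11.5%) with a lower one. Upward DEGs of the control step that were not DEGs in the KD step numbered 703, 189 of them (26.9%) with a lower KD step. Downward there were 870, 222 of them (25.5%) with a higher KD step. Most genes that were DEGs in 1 step alone were therefore not shown to differ between the steps.

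The lowest step differences belonged mostly to genes that rose in both steps but less in KD embryos. *Upp1*, uridine phosphorylase, read 5.87, 4.22 and 7.49 in KD morulae and 18.2, 25.9, 28.3 and 18.6 in KD blastocysts, while control embryos went from 0.480 to 2.23 to 73.3 to 114 (step difference −3.84 ± 0.36, adjusted p = 1.7e-05). Its KD morulae were higher than all control morulae and its KD blastocysts lower than all control blastocysts. *BC053393* differed by −3.65 ± 0.41 (adjusted p = 9.3e-05), the actin-binding *Tmsb4x* by −2.84 ± 0.60 (adjusted p = 0.0061), *Gpa33* by −2.72 ± 0.35 (adjusted p = 1.8e-04), and *Dppa1* by −2.66 ± 0.60 (adjusted p = 0.0085). *Slc44a1*, a choline transporter, and *Fam161a* were not DEGs in the KD step (−0.73 ± 0.39 and −0.85 ± 0.27) and rose in control embryos (2.22 ± 0.23 and 1.83 ± 0.22), with step differences of −2.95 ± 0.50 (adjusted p = 0.0012) and −2.68 ± 0.36 (adjusted p = 2.6e-04). In the KD step *Slc44a1* became a downward DEG in 1 fit (−1.15 without KD blastocyst replicate 6) and *Fam161a* in 2 (−1.01 without KD blastocyst replicate 4 and −1.07 without KD morula replicate 6).

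The highest step differences had several shapes. *Cphx2*, *Kdm2b*, *Nppb*, *Alppl2*, *Gm5890* and *Tmem56* fell in control embryos and were not DEGs in KD embryos. *Gm5890* (−0.73 ± 0.23) and *Tmem56* (−0.93 ± 0.27) missed the fold limit in KD embryos, and each became a downward DEG in 1 fit, *Gm5890* at −1.04 without KD morula replicate 2 and *Tmem56* at −1.26 without KD morula replicate 6. *Nppb*, a natriuretic peptide gene, read 31.2, 14.2 and 10.8 in KD morulae and 27.1, 23.2, 11.9 and 28.3 in KD blastocysts, with overlap, while control embryos fell from 26.8 to 50.4 to 4.64 to 6.39 (step difference 2.84 ± 0.47, adjusted p = 0.0012). *Kdm2b*, a histone demethylase, differed by 2.86 ± 0.51 (adjusted p = 0.0018), the homeobox gene *Cphx2* by 2.87 ± 0.41 (adjusted p = 3.8e-04) and *Gm5890* by 2.71 ± 0.43 (adjusted p = 8.2e-04). The alkaline phosphatase gene *Alppl2* differed by 2.56 ± 0.46 (adjusted p = 0.002) and *Tmem56* by 2.49 ± 0.32 (adjusted p = 1.9e-04). *Trim43c*, of near-identical copies with uncertain reads, fell in both steps but less in KD embryos (−2.24 ± 0.20 and −4.73 ± 0.21, step difference 2.49 ± 0.30, adjusted p = 1.3e-04). *Nanog* (2.49 ± 0.45, adjusted p = 0.002) and *Tex19.2* (2.50 ± 0.52, adjusted p = 0.0055) rose in KD embryos and were not DEGs in control embryos. *Tex19.2*, a germline gene, read 1.23, 0.622 and 3.09 in KD morulae and 15.8, 10.4, 24.6 and 19.5 in KD blastocysts, higher in all 4.

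Promoters were taken from RefSeq (GRCm38.p6). Of the 11370 tested genes 7090 (62.4%) had one, as had 73.3% of the upward and 61.4% of the downward DEGs. Genes without a promoter are not covered by the shares below. Base composition was not compared. The TFAP2 motif GCCNNNGGC was searched on both strands, as were the TEAD motif GGAATG, the TFEB motif TCACGTGA, the GATA motif AGATAA and the sterol element TCACNCCAC. They occurred in 16.6%, 14.7%, 0.974%, 11.2% and 1.24% of all 32851 promoters, and in 23.5%, 12%, 2.20%, 6.60% and 1.07% of those of tested genes. Among upward DEGs with a promoter the shares were 21.4%, 13.9%, 2.98%, 7.39% and 1.56%, and among downward DEGs 18.8%, 14.4%, 1.11%, 7.98% and 1.55%. A match describes the sequence alone, and its absence says nothing on binding. Shown in lower case with the match in capitals are the 300 bases of *Gjb5* (chr4:127358115-127358414, minus strand), *Cldn3* (chr5:134985964-134986263, plus strand), *Krt18* (chr15:102027966-102028265, plus strand) and *Gata3* (chr2:9878551-9878850, minus strand, 3 matches) for GCCNNNGGC, of *Mcoln1* (chr8:3500269-3500568, plus strand) for TCACGTGA and of *Ccn1* (chr3:145649936-145650235, minus strand) for GGAATG. In KD embryos *Gjb5* rose by 3.71, *Cldn3* by 1.48, *Krt18* by 2.89, *Mcoln1* by 1.50 and *Gata3* by 1.05, the last not a DEG in 3 fits, while *Ccn1* was not a DEG at 0.64.
Gjb5: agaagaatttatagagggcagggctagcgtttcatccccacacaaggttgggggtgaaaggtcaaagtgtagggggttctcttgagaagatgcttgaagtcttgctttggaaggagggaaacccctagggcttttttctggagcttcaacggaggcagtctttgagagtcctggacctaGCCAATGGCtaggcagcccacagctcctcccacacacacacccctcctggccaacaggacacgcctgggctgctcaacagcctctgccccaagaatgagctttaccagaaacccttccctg
Cldn3: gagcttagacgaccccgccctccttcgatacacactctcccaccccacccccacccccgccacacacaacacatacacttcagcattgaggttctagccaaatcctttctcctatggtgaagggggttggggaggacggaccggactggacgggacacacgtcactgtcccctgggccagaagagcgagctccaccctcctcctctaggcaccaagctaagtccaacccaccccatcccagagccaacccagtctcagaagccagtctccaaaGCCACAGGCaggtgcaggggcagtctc
Krt18: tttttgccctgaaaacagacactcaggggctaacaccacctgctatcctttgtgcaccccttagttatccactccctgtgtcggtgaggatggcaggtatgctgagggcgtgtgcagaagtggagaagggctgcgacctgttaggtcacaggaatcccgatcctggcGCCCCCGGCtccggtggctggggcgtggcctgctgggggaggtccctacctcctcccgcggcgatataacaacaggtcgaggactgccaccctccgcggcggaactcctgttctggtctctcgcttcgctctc
Gata3: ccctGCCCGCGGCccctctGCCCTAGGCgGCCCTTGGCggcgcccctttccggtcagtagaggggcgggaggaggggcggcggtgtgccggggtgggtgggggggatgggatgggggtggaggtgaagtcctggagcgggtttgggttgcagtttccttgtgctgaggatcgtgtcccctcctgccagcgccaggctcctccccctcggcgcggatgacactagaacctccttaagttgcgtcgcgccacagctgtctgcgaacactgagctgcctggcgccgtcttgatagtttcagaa
Mcoln1: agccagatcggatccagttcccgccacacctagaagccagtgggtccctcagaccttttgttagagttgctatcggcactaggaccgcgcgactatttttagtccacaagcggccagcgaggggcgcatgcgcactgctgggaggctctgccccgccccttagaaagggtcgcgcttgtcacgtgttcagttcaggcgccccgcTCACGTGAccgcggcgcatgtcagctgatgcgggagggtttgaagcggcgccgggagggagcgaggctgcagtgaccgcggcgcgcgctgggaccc
Ccn1: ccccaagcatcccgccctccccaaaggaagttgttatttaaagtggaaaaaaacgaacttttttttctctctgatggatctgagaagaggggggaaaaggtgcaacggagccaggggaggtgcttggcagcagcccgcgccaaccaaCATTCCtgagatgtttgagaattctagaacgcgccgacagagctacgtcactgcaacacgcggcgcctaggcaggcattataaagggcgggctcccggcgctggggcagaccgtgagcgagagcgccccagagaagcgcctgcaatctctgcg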

How the data were processed

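According to the labels, the authors aligned reads to mm10 with STAR, computed FPKM with StringTie 2.1.4, counted reads with featureCounts 1.6.2 and tested with DESeq2 1.30.1. The FPKM table that the authors deposited was used, and counts were not used here. FPKM of the 15 morula and blastocyst libraries were divided by a library factor (0.895 to 1.19), the median of ratios over 17374 genes above 0 in all 15. Log2(FPKM + 1) was tested in R 4.3.3 with limma 3.58.1 (lmFit and eBayes with trend), with Benjamini-Hochberg adjustment. The KD step used 3 KD morula and 4 KD blastocyst libraries (5 residual degrees of freedom), the control step 4 and 4 (6), and the step difference all 15 (11). Genes needed 1 FPKM or more in 3 or more compared libraries. The p-values measure spread between libraries of pooled embryos. Libraries of different groups share replicate numbers, and groups were not paired. The tests recovered most known changes in simulated data, but not all of the smaller ones. The changed genes were all well above 1 FPKM, so recovery at low level was not measured.

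Genes named by rule are the 10 protein-coding DEGs with the largest rise and the 10 with the largest fall among those whose KD libraries do not overlap, the 10 highest and 10 lowest protein-coding step differences, and members of the gene lists. Members and lists were chosen with earlier results of these data known. Python 3.11.15, pandas 2.3.3, numpy 2.4.6 and matplotlib 3.10.9 were used. Alternatives were another scale, pseudocount, filter, variance model, replicate range, a replicate block and leaving out each library.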

Additional observations from a re-analysis of the deposited data

Results flagged for a closer look

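A test of the step difference picked out 438 genes whose KD step exceeded the control step and 406 whose KD step was below it. Among the genes named in the report, the KD step exceeded the control step for *Cphx2* (2.87), *Kdm2b* (2.86), *Nppb* (2.84), *Gm5890* (2.71), *Obox6* (2.63), *Alppl2* (2.56), *Tex19.2* (2.50), *Tmem56* (2.49), *Nanog* (2.49), *Trim43c* (2.49), *Hsd17b1* (1.85), *Sp110* (1.77), *Gaa* (1.72), *Ccn1* (1.59), *Bex6* (1.41), *Ctsz* (1.18) and *Atf3* (1.10). It was below the control step for *Upp1* (−3.84), *BC053393* (−3.65), *Lgals1* (−3.33), *Slc44a1* (−2.95), *Tmsb4x* (−2.84), *Tspan8* (−2.78), *Spp1* (−2.77), *Gpa33* (−2.72), *Fam161a* (−2.68), *Dppa1* (−2.66), *Ooep* (−2.28), *S100a10* (−2.23), *Adh1* (−2.23), *Id2* (−2.21), *Tdgf1* (−2.18), *Npc1* (−2.17), *mt-Co1* (−2.13), *Plac1* (−2.08), *Sparc* (−2.06), *Tpi1* (−1.82), *Fxyd4* (−1.77), *Dsg2* (−1.55), *Dusp6* (−1.37), *Gm2a* (−1.35), *Pole* (−1.33), *Hk2* (−1.22), *Lgals3* (−1.18) and *Atp1b1* (−1.14), all as differences of log2 fold changes. The cause was not tested.

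The same test picked out genes whose difference missed a limit when 1 library was left out. *Elf3* (1.45) became 1.37 (adjusted p = 0.055) without KD morula replicate 1 and 1.34 (adjusted p = 0.058) without KD morula replicate 2. *Cnmd* (1.12) became 0.99 without KD blastocyst replicate 1, *Dsc2* (−1.10) −0.95 without KD blastocyst replicate 1 and *Scd1* (−1.12) −0.97 without KD blastocyst replicate 1. *S100a11* (−1.09) became −0.99 without KD morula replicate 6 and −0.97 without control blastocyst replicate 1. *H2afv* (1.04) became 0.89 without KD blastocyst replicate 1, 0.96 without KD blastocyst replicate 4, 0.99 (adjusted p = 0.05) without KD morula replicate 6, 0.99 without control blastocyst replicate 5 and 0.98 without control morula replicate 2. *Aqp3* (1.33), *Mcoln1* (1.06), *Zscan5b* (1.05) and *Npy* (−1.26) missed a limit without any of several libraries. For *Aqp3* the values were 1.25 (adjusted p = 0.051) without KD blastocyst replicate 1, 1.20 (adjusted p = 0.075) without KD morula replicate 2, 1.14 (adjusted p = 0.05) without control blastocyst replicate 1, 1.28 (adjusted p = 0.051) without control blastocyst replicate 4 and 1.24 (adjusted p = 0.051) without control morula replicate 1, and for *Mcoln1* 1.02 (adjusted p = 0.056) without KD blastocyst replicate 1, 1.03 (adjusted p = 0.052) without KD blastocyst replicate 5, 0.89 (adjusted p = 0.098) without KD morula replicate 2, 1.000 (adjusted p = 0.072) without KD morula replicate 6, 0.87 (adjusted p = 0.056) without control blastocyst replicate 1, 1.06 (adjusted p = 0.053) without control blastocyst replicate 4 and 0.996 (adjusted p = 0.063) without control morula replicate 2. For *Zscan5b* they were 1.05 (adjusted p = 0.062) without KD blastocyst replicate 1, 0.99 (adjusted p = 0.071) without KD blastocyst replicate 5, 0.996 (adjusted p = 0.077) without KD blastocyst replicate 6, 1.02 (adjusted p = 0.091) without KD morula replicate 1, 0.91 (adjusted p = 0.106) without KD morula replicate 6, 0.86 (adjusted p = 0.073) without control blastocyst replicate 1, 1.04 (adjusted p = 0.07) without control blastocyst replicate 4, 1.10 (adjusted p = 0.051) without control blastocyst replicate 6, 1.07 (adjusted p = 0.061) without control morula replicate 1, 1.09 (adjusted p = 0.058) without control morula replicate 2 and 0.93 (adjusted p = 0.081) without control morula replicate 8, and for *Npy* −1.03 (adjusted p = 0.065) without KD blastocyst replicate 4, −1.24 (adjusted p = 0.064) without KD blastocyst replicate 5, −1.32 (adjusted p = 0.053) without KD blastocyst replicate 6, −1.18 (adjusted p = 0.0997) without KD morula replicate 2, −1.14 (adjusted p = 0.098) without KD morula replicate 6, −1.32 (adjusted p = 0.054) without control blastocyst replicate 1, −1.32 (adjusted p = 0.054) without control blastocyst replicate 4, −1.14 (adjusted p = 0.066) without control blastocyst replicate 5, −1.24 (adjusted p = 0.067) without control blastocyst replicate 6, −1.24 (adjusted p = 0.067) without control morula replicate 1, −1.05 (adjusted p = 0.074) without control morula replicate 7 and −1.32 (adjusted p = 0.051) without control morula replicate 8.

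A library far from the other 3 of its group was found in 3 of 93 groups of per-library values given in the report, and chance picks out about 1 in 20 groups. KD blastocyst replicate 1 was low for *Atf3* (gap of 0.832 of the range), KD blastocyst replicate 4 high for *S100a10* (0.872) and control morula replicate 1 high for *Dsg2* (0.894).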

How the results depend on the processing

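No named result reversed its direction while it was a DEG. Of 176 named genes, 23 lost and 5 gained the DEG call of the KD step with the replicate block. With FPKM as deposited 17 lost and 6 gained it. Without a filter on low FPKM 14 lost it, and with the range of replicate numbers 14. After quantile normalization 7 lost and 1 gained it. In the fit over all 15 libraries 1 lost it, and with a pseudocount of 0.1, 5 gained it. With FPKM as deposited the KD step had 473 downward DEGs, and the median of its values over downward DEGs of the control step was −0.66, since the library factors were left out. With an FPKM of at least 5 as the filter it had 609 upward DEGs, because fewer genes were tested. A pseudocount of 0.1 gave 1475 upward DEGs and a median of 1.20 over upward DEGs of the control step. A smaller pseudocount enlarges log2 fold changes of genes near or below 1 FPKM, and its share in these values was not tested. Without a filter on low FPKM the step difference had 472 DEGs, 234 higher and 238 lower, and the cause was not tested. Quantile normalization, a fit without a trend and the range of replicate numbers kept the counts of DEGs of the KD step, the control step and the step difference within 1.5 times. A scale from the compared libraries alone kept those of the KD step and the control step, and a fit over all 15 libraries those of the KD step. The step difference uses all 15 libraries, so a scale from the compared libraries is the same there. Counts of gene lists, most of them below 10, moved more. Of 52 such counts 14 moved by over 1.5 times with FPKM as deposited, 13 with the filter at 5 FPKM, 8 with the replicate block, 5 without a filter, 4 after quantile normalization, 4 with the range of replicate numbers, 3 with the pseudocount of 0.1 and 1 in the fit over all 15 libraries. With FPKM as deposited upward DEGs went from 0 to 1 in the lists of H2A.Z genes, the Hippo pathway, the 2-cell stage and ribosomal proteins, from 1 to 3 in fluid transport and from 8 to 18 in the respiratory chain. Downward DEGs went from 3 to 0 in the Hippo pathway, from 2 to 0 in splicing, from 4 to 1 in mitosis, from 3 to 1 among lysosome genes and from 1 to 0 in primitive endoderm, sterol synthesis, DNA replication and blood and oviduct genes. After quantile normalization 13 respiratory chain genes rose in place of 8, 1 ribosomal protein gene in place of none and 1 oocyte gene in place of 2, and no splicing factor fell in place of 2. With the range of replicate numbers 1 lysosome gene fell in place of 3, and no splicing factor, late trophectoderm effector or blood and oviduct gene in place of 2, 1 and 1. With the replicate block 2 genes of the 2-cell stage and 1 ribosomal protein gene rose in place of none. Downward it had 1 fluid transport gene in place of none, 1 lysosome gene in place of 3, 2 mitosis genes in place of 4, 2 blood and oviduct genes in place of 1, and no splicing factor or late effector in place of 2 and 1. Replicate numbers 1 and 6 occur in both KD groups, and the KD libraries sharing them deviated from their group means with correlations of −0.103 and −0.100. Morulae of both conditions share 1 and 2, at 0.171 and 0.0853, and blastocysts share 4 numbers, at 0.0850, −0.106, 0.345 and 0.00133, so that not every library correlated best with its own number. The numbers were not taken to pair the libraries. Blocking on replicate number pairs 2 of the KD libraries of each stage and leaves 1 residual degree of freedom in the KD step, which then had 1590 DEGs, and 5 in the step difference, which had 1090.

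With 1 library left out the KD step had 1592 to 1875 DEGs, 907 to 1059 upward and 685 to 816 downward, the control step 2950 to 3194 (1547 to 1721 and 1338 to 1493), and the step difference 639 to 1022 (311 to 565 higher and 328 to 483 lower). Of the upward DEGs of the control step 46.1% to 52.7% were shared with a median of 0.94 to 1.05, and of the downward DEGs 34.8% to 39.8% with a median of −0.86 to −0.78. FPKM carry no read counts, so the depth that limits genes of low level is not known.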
